A study of Homo sapiens with 12 samples.

Results

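AP-1 is a transcription factor made of pairs of proteins from the FOS family (FOS, FOSB, FOSL1 and FOSL2) and the JUN family (JUN, JUNB and JUND). ATF3 is a related stress-induced protein that can pair with JUN proteins. The mRNA of these 8 genes is described here, out of 58735 genes in the authors' table. They were chosen by gene name, with results of these same libraries known. Their values are therefore a description, and nothing is read from how many of them passed a test.

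The proteins hold each other through a leucine zipper and bind DNA with the basic stretch beside it, and are called bZIP proteins for this. FOS proteins need a JUN partner to bind DNA well, while JUN proteins can also pair among themselves. FOS, FOSB, JUN, JUNB and ATF3 are textbook early response genes, whose short-lived mRNA can appear within minutes of a growth signal or a stress. FOSL1 and FOSL2 follow more slowly and last longer, and JUND is usually present in resting cells. Oxidants such as H2O2 are known to act on AP-1 through MAP kinases such as JNK and p38.

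The cells were HLE-B3, a human line made by immortalizing epithelial cells of the lens, and the study asked what autophagy does in such cells under oxidative stress. RNA was sequenced from 4 groups with 3 biological replicates each, 12 libraries in all. WT cells were sequenced untreated at 0 h and after 12 h with 200 μM H2O2. ATG7 KO cells, in which CRISPR/Cas9 was aimed at a gene needed to form autophagosomes, were sequenced in the same 2 states. The labels do not say which knockout clone was used, so the edit cannot be told apart from other differences between the lines. Untreated cells were taken at 0 h, so the effect of H2O2 cannot be told apart from that of 12 h in culture.

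Reads on genes ranged from 15602183 to 17659496 per library, with a median of 17205174. At this depth FOS rested on 12 to 25 reads in each untreated library, and FOSL1 on 2943 to 6495. Levels are given in FPKM, which scales reads by gene length and library size, so that levels of different genes can be set side by side.

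Replicate 1 of the untreated ATG7 KO cells stood apart. Its mean Pearson r with the other 2 libraries of its group, over log2 values across genes, was 0.971, while replicates 2 and 3 had an r of 0.9926 with each other. In the other 3 groups the mean r of each library was 0.992 or 0.993. Where untreated ATG7 KO cells are used, the log2 changes and calls of the 8 genes and the counts of the gene lists are given with all 3 replicates and again without this one. Values around them, such as those of genes named from the lists and of neighbouring genes, are given with all 3.

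The counts could not check the knockout label, since ATG7 mRNA was not lower in the ATG7 KO libraries. The paper checked its knockout clones at the protein level, by western blot. ATG7 was at 2.55 ± 0.313 FPKM (SD, n = 3, as for all values with ±) in untreated WT cells and at 3.55 ± 0.205 in untreated ATG7 KO cells. With H2O2 it was at 1.96 ± 0.0411 FPKM in WT cells and 2.19 ± 0.137 in ATG7 KO cells.

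Markers of lens epithelium were scarce in this line. Of 9 such genes, 1 had a mean over 1 FPKM across the 12 libraries, the eye field gene SIX3, and their summed level ran from 2.60 to 5.79 FPKM per library. The lens epithelial regulator FOXE3 and the lens crystallin gene CRYAA had at most 3 reads in any library. Those with more reads did not move together. SIX3 was at 3.06 ± 0.131 FPKM untreated and 2.46 ± 0.236 with H2O2 in WT cells, and at 1.98 ± 0.117 and 2.45 ± 0.355 in ATG7 KO cells. The eye regulator PAX6 was at 1.27 ± 0.0741 and 0.776 ± 0.0638 in WT and 1.02 ± 0.384 and 0.560 ± 0.0481 in ATG7 KO cells. The crystallin gene CRYAB was at 0.172 ± 0.0345 and 1.65 ± 0.292 in WT and 0.0119 ± 0.0206 and 0.940 ± 0.0690 in ATG7 KO cells. The 7 fibroblast or mesenchymal markers, led by COL1A1, summed to between 1093 and 1107 FPKM in untreated WT cells, 625 and 656 in WT cells with H2O2, 775 and 852 in untreated ATG7 KO cells, and 527 and 540.2 in ATG7 KO cells with H2O2. COL1A1 (626 and 272 FPKM) and FN1 (143 and 63.0) carry the difference in WT cells, where VIM was at 322 and 299, ACTA2 at 1.56 and 3.55 and S100A4 at 0.477 to 0.728 and 0.978 to 1.25 FPKM. The 3 immune cell markers summed to at most 0.185 FPKM in any library. These marker sums move with the groups, and their part in the results below was not tested.

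The 8 genes lie on 5 chromosomes and far from each other (GRCh38), with JUN and ATF3 both on chromosome 1 and 3 on chromosome 19. FOS spans chr14:75278774-75282230 on the plus strand, FOSL1 chr11:65892049-65900573 on the minus strand and FOSL2 chr2:28392448-28417312 on the plus strand. JUN spans chr1:58780788-58784327 on the minus strand and ATF3 chr1:212565334-212620777 on the plus strand. FOSB (chr19:45467995-45475179, plus), JUNB (chr19:12791496-12793315, plus) and JUND (chr19:18279760-18281622, minus) share their chromosome. JUNB lies over HOOK2, a gene of the other strand, along all of its 1820 bases, and HOOK2 had 134 to 391 reads per library. FOSB lies over the other strand's ERCC1 along 7185 bases, and ERCC1 had 732 to 1055 reads. The library kit is not one that marks strand, so how reads were shared between such genes could not be checked.

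What the genes share in sequence near their starts was read from RefSeq promoters (GRCh38.p14, 250 bases before to 50 after the start). The table held 7 of the 8 genes, in 8 entries, and FOSL1 had none. The letters searched on both strands were TGANTCA for the AP-1 site, the cyclic AMP response element TGACGTCA, the CArG box of serum response elements and TATAAA. In TGANTCA the N was any base, which takes in more than the usual AP-1 site. None of these motifs contains another. TATAAA, the letters of a TATA box, began 33 bases before the start of FOS, 30 before that of FOSB and 31 before that of JUNB. It also lay at -230 from the second of the ATF3 starts, and 11.5% of all 35116 promoters in the table hold it somewhere in their window. JUND held TGACGTCA 200 bases before its start, as 1.85% of all promoters do. FOSL2 held an AP-1 site, TGACTCA, just after its start, and 7.71% of all promoters hold some match to the looser TGANTCA. A CArG box, present in 1.29% of all, was found in no member's window. Bases further than 250 before a start were not searched, so elements lying there would be missed.

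The stretches before the starts of FOSB, JUNB and JUND are shown as examples with and without TATAAA near the start. Capitals mark TATAAA in FOSB (chr19:45467746-45467994, plus strand) and JUNB (chr19:12791236-12791485, plus strand), and TGACGTCA in JUND (chr19:18281623-18281872, minus strand). A match of letters is a description and not a site shown to be used.
FOSB: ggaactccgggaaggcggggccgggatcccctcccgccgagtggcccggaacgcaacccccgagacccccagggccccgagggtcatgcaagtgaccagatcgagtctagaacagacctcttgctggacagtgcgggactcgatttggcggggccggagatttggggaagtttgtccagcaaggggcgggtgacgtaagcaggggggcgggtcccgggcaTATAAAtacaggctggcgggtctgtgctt
JUNB: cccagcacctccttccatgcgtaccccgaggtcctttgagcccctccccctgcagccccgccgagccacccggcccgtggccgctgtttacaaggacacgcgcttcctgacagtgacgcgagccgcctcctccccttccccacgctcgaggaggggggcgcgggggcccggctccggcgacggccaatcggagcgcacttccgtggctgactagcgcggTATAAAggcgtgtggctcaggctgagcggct
JUND: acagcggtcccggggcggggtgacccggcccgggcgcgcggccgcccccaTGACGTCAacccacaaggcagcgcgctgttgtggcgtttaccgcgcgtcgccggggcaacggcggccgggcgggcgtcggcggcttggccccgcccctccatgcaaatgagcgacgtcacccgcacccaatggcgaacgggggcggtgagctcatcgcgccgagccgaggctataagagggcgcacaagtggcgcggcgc

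The first question is which of these mRNAs an untreated culture holds. FOSL1, the FOS-related protein often found in migrating and mesenchymal-like cells, had the highest level in untreated WT cells at 186 ± 2.01 FPKM. JUND followed at 61.8 ± 2.42, JUNB at 57.6 ± 1.56, JUN at 38.3 ± 1.52 and FOSL2 at 24.8 ± 0.952 FPKM, with no overlap between neighbours in this order. ATF3 stood at 4.16 ± 0.111 FPKM. FOSB at 0.457 ± 0.0522 and FOS at 0.335 ± 0.0868 FPKM were lowest, and these last values overlapped. The textbook early genes were thus spread over the order, with JUNB and JUN above FOSL2.

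Untreated ATG7 KO cells had the same gene at the top by mean, FOSL1 at 138 ± 37.6 FPKM, and the same genes at the bottom. JUND (77.0 ± 19.5 FPKM) and JUNB (62.3 ± 10.8 FPKM) overlapped there. JUN was at 37.5 ± 1.44, FOSL2 at 22.8 ± 5.97 and ATF3 at 1.74 ± 0.432 FPKM. FOSB was at 0.510 ± 0.111 and FOS at 0.241 ± 0.0370 FPKM, without overlap. Replicate 1, the library that stood apart, had the lowest FOSL1 (94.6 FPKM, against 161 and 158) and FOSL2 (15.9, against 26.3 and 26.1) of its group. It also had the highest JUND (99.5 FPKM, against 67.0 and 64.6) and JUNB (74.8, against 55.1 and 57.0), so that JUND exceeded FOSL1 in this library.

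With H2O2 the order in WT cells was FOSL1 at 299 ± 27.8 FPKM, JUNB at 221 ± 14.0, JUN at 153 ± 7.45, JUND at 89.2 ± 4.18, ATF3 at 81.1 ± 11.3, FOSL2 at 27.5 ± 1.33, FOS at 11.7 ± 2.21 and FOSB at 10.4 ± 1.42. JUND and ATF3 overlapped, as did FOS and FOSB. With H2O2 the order in ATG7 KO cells was FOSL1 at 170.1 ± 3.62 FPKM, JUN at 85.4 ± 1.66, JUND at 75.2 ± 1.57, JUNB at 56.0 ± 0.981, FOSL2 at 38.2 ± 1.18, ATF3 at 35.9 ± 0.830, FOSB at 1.13 ± 0.104 and FOS at 0.736 ± 0.215. No neighbours in that order overlapped.

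**Figure D1:**
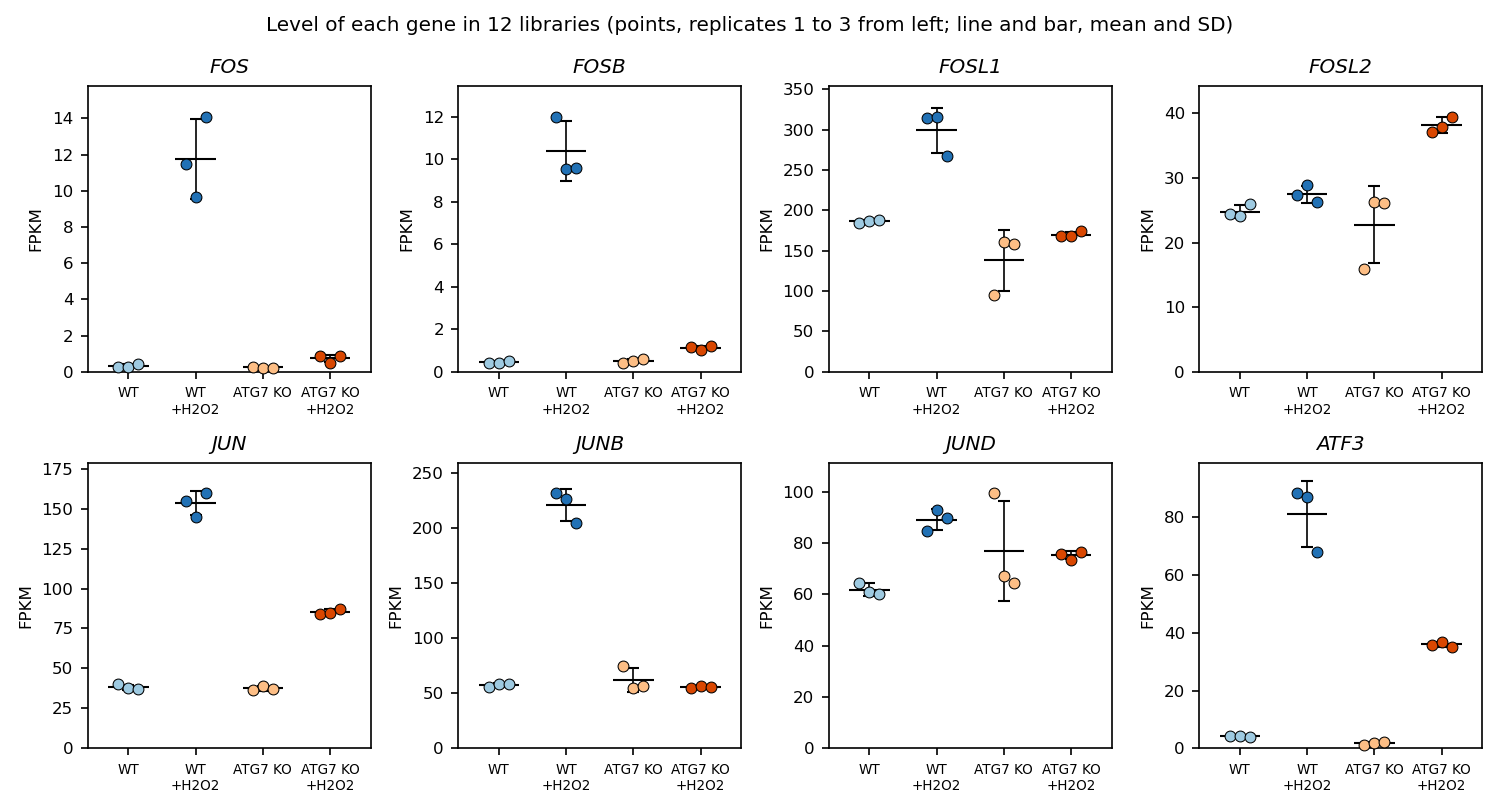
Level of each of the 8 genes in FPKM (vertical axis, linear from 0, a scale of its own for each gene) in the 12 libraries, by group. Points are libraries, lines are group means and bars are SD. FOS, FOSB and JUNB are high in the 3 WT libraries with H2O2, at 9.67 FPKM or more for FOS against 0.872 or less in every other library.

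The response of WT cells to H2O2 was read by setting the 3 treated libraries against the 3 untreated ones. FOS, the partner that gives AP-1 much of its strength on DNA, was at 0.284, 0.285 and 0.435 FPKM untreated and at 11.5, 9.67 and 14.1 FPKM with H2O2. All 3 treated libraries lay far above the untreated ones. This was 34.8-fold, or 5.12 on the log2 scale (standard error 0.17, adjusted p = 3.38e-20). FOSB, its close relative, was at 0.434, 0.421 and 0.517 FPKM untreated and at 12.0, 9.53 and 9.57 with H2O2. Its groups did not overlap either, and the change was 22.6-fold (log2 4.50, standard error 0.12).

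ATF3, which is induced by DNA damage, unfolded proteins and amino acid shortage, was at 4.26, 4.18 and 4.04 FPKM in untreated WT cells and at 88.3, 86.9 and 68.1 with H2O2. The lowest treated library was still well above the highest untreated one. The rise was 19.4-fold (log2 4.28, standard error 0.13, adjusted p = 1.41e-07).

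JUN, the strongest activator of its family, was at 40.1, 37.7 and 37.2 FPKM untreated and at 155, 145 and 159.7 with H2O2, a 3.99-fold rise (standard error 0.05 on the log2 scale). JUNB, which can hold JUN back or replace it, was at 55.8, 58.1 and 58.8 FPKM untreated and at 232, 227 and 205 with H2O2, a 3.83-fold rise (log2 1.94, standard error 0.05). For both genes every treated library was above every untreated one.

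The remaining members moved less. FOSL1 rose by 0.68 on the log2 scale (standard error 0.05), from 184 to 188 FPKM untreated to 267 to 316 with H2O2. JUND rose by 0.52 (standard error 0.05), from 60.0 to 64.6 FPKM to 84.7 to 93.0. FOSL2 was at 24.1 to 25.9 FPKM untreated and 26.3 to 28.9 with H2O2, a log2 difference of 0.14 (standard error 0.05, adjusted p = 0.00560). That call was lost without replicate 1 or 2 of either WT group (adjusted p from 0.0200 to 0.0746). It was also lost with DESeq2 (adjusted p = 0.0170), with low-count genes kept in (0.0863), with limma on FPKM (0.0260 and 0.0266) and with all 12 libraries in the fit (0.443).

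In all, 8 of the 8 genes passed an adjusted p of 0.01 upward in WT cells, where 30.9% of the 15913 genes tested did so and 30.1% passed downward. The median log2 change was 1.97 over the 8 genes and -0.01 over all genes tested. The study's further thresholds were a log2 change beyond 1 and over 1 FPKM, the latter read here as a mean over 1 in a group. With them 5 of the 8 were higher (FOS, FOSB, JUN, JUNB and ATF3), as were 7.30% of all genes tested.

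In ATG7 KO cells FOS and FOSB rose by less than in WT cells, a difference tested further below. FOS was at 0.281, 0.208 and 0.234 FPKM untreated and at 0.848, 0.489 and 0.872 with H2O2. The treated libraries were all higher, yet on 26 to 49 reads each. The log2 change was 1.61 (standard error 0.31, adjusted p = 0.00612), and 1.72 without untreated replicate 1. FOSB was at 0.393, 0.526 and 0.613 FPKM untreated and at 1.15, 1.02 and 1.22 with H2O2, again without overlap. Its log2 change was 1.14 (standard error 0.20, adjusted p = 0.00424), and 0.98 without that replicate. Both calls hung on single libraries. FOS lost its call without untreated replicate 2 or 3 or treated replicate 1 or 3 (adjusted p from 0.0233 to 0.0302), and FOSB without untreated replicate 2 or any 1 treated replicate (0.0150 to 0.0230).

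JUN was at 36.3, 39.1 and 37.1 FPKM in untreated ATG7 KO cells and at 84.1, 84.9 and 87.2 with H2O2. The 2 sets of 3 libraries did not overlap, and the rise was 2.27-fold (log2 1.18, standard error 0.09, adjusted p = 8.81e-05), with 1.15 without replicate 1. ATF3 was at 1.29, 1.78 and 2.15 FPKM untreated and at 35.8, 36.8 and 35.2 with H2O2. Here too each treated library was far above each untreated one, and the rise was 20.5-fold (log2 4.36, standard error 0.19, adjusted p = 2.14e-05), with 4.18 without replicate 1.

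JUNB did not pass the test in ATG7 KO cells. It was at 74.8, 55.1 and 57.0 FPKM untreated and at 55.0, 57.0 and 55.9 with H2O2, and apart from replicate 1 the libraries of both groups lay within the same narrow range. Its log2 difference was -0.16 (standard error 0.13, adjusted p = 0.351), and -0.02 without replicate 1. JUND (log2 -0.04) and FOSL1 (log2 0.30) did not pass either, and neither did FOSL2 (log2 0.74, adjusted p = 0.0219). The values of these 3 moved with replicate 1. Without it JUND was at log2 0.18 and FOSL2 at 0.53, both called higher, and FOSL1 was at 0.08 and not called. FOSL2 was also called with DESeq2 (adjusted p = 0.00154), with low-count genes kept in (0.00376), with a correction for gene length (0.00608) and with all 12 libraries in the fit (0.00103).

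In all, 4 of the 8 genes passed upward in ATG7 KO cells (FOS, FOSB, JUN and ATF3), where 13.6% of the 15475 genes tested did so and 12.4% passed downward. Without replicate 1, 6 of the 8 passed upward, where 29.8% of all genes tested did so and 28.6% passed downward. The count was 2 without untreated replicate 2 or without treated replicate 1 or 3, where 9.49%, 6.56% and 6.57% of all genes passed upward. The median log2 change was 0.94 over the 8 genes and -0.03 over all. FOSB, JUN and ATF3 also met the study's further thresholds upward, as did 6.09% of all genes tested. Without replicate 1 FOSB, at 0.98, was under the log2 threshold of 1.

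**Figure D2:**
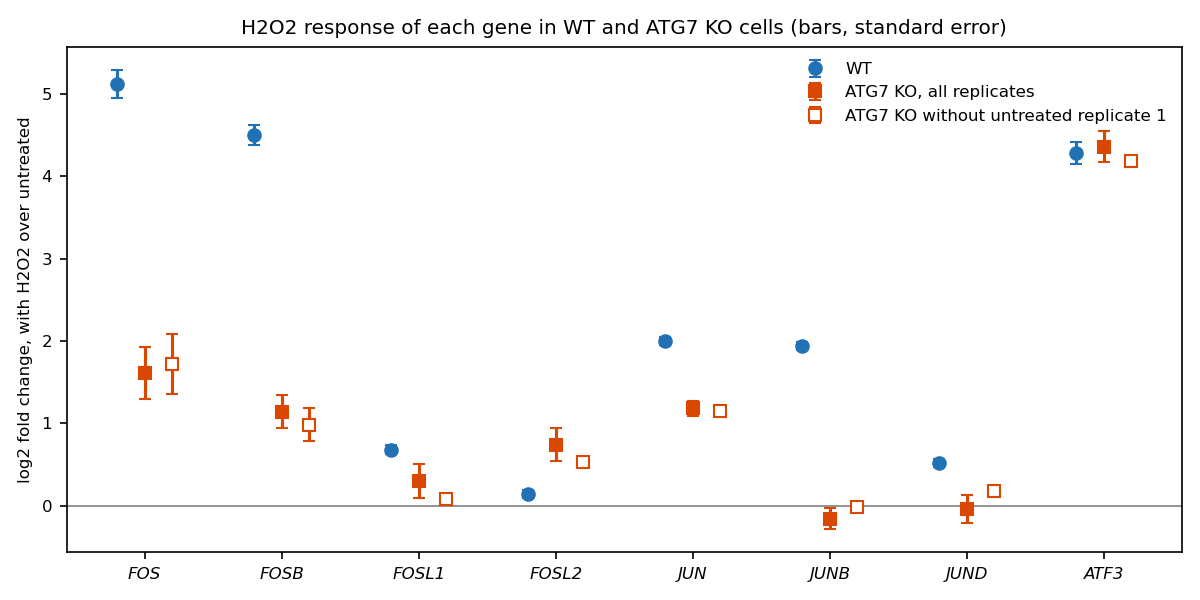
Log2 fold change of each gene, with H2O2 over untreated (vertical axis), in WT cells (circles), ATG7 KO cells (filled squares) and ATG7 KO cells without untreated replicate 1 (open squares), with standard errors as bars. FOS lies at 5.12 in WT and 1.61 in ATG7 KO cells and JUNB at 1.94 and -0.16, while ATF3 lies at 4.28 and 4.36.

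Whether the H2O2 response differed between the genotypes was tested as an interaction over all 12 libraries, where a negative value means a smaller rise in ATG7 KO cells. FOS had an interaction of -3.51 on the log2 scale (standard error 0.42, adjusted p = 0.000169), and -3.39 without replicate 1. FOSB had -3.36 (standard error 0.24, adjusted p = 7.30e-06), and -3.51 without it. JUNB, at -2.10 (standard error 0.15, adjusted p = 6.13e-06; -1.94 without it), and JUN, at -0.81 (standard error 0.10, adjusted p = 0.000156; -0.83 without it), completed the genes called. All 4 had the larger log2 change in WT cells.

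ATF3 did not share this. Its interaction was 0.08 on the log2 scale (standard error 0.20, adjusted p = 0.795), and -0.09 without replicate 1, and it changed sign also without replicate 3 of WT cells with H2O2 (-0.03). A p that misses the threshold does not show that the rises were equal. FOSL1 (-0.38), JUND (-0.56) and FOSL2 (0.60) did not pass with all libraries. Without replicate 1 they were at -0.58, -0.33 and 0.40, and all 3 passed. JUND (adjusted p = 0.00282) and FOSL2 (0.000200) also passed with low-count genes kept in.

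In the interaction 4 of the 8 genes passed with a negative value, where 7.01% of the 16856 genes tested did so and 7.02% passed with a positive one. Without replicate 1, 6 of the 8 passed with a negative value, as did 16.3% of all genes tested, and 1, FOSL2, with a positive one, as did 17.8%. The median over the 8 genes was -0.69, and over all genes -0.03.

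Before any treatment ATF3 was the member that differed between genotypes. It was at 1.29, 1.78 and 2.15 FPKM in untreated ATG7 KO cells against 4.26, 4.18 and 4.04 in untreated WT cells, with every ATG7 KO library lower. The log2 difference was -1.25 (standard error 0.19, adjusted p = 0.00513), and -1.07 without replicate 1. It was no longer called without any 1 of the WT replicates or without ATG7 KO replicate 2 (adjusted p from 0.0192 to 0.0328). FOS was at log2 -0.47 (adjusted p = 0.325), FOSB at 0.16, JUN at -0.03, JUNB at 0.11, JUND at 0.31, FOSL1 at -0.43 and FOSL2 at -0.12, and none of these passed. Without replicate 1 FOSL1 was at -0.22 and called lower. The others, not called, were then at -0.59 (FOS), 0.32 (FOSB), -0.00 (JUN), -0.03 (JUNB), 0.10 (JUND) and 0.09 (FOSL2).

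So 1 of the 8 genes passed downward before treatment, where 3.28% of the 15357 genes tested did so and 4.42% passed upward, and ATF3 met the further thresholds, as 1.23% of all genes tested did downward. Without replicate 1, 2 of the 8 passed downward, as did 17.9% of all genes tested. The median was -0.07 over the 8 genes and 0.01 over all.

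With H2O2 the genotypes differed in each of the 8 genes. FOS was 15.9-fold lower in ATG7 KO than in WT cells (log2 -3.99, standard error 0.19) and FOSB 9.21-fold lower (log2 -3.20, standard error 0.10). JUNB was 3.97-fold lower (log2 -1.99, standard error 0.04) and ATF3 2.27-fold lower (log2 -1.18, standard error 0.12, adjusted p = 0.000688). In each of these 4 genes all 3 ATG7 KO libraries lay below all 3 WT libraries, as the values above show.

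JUN (log2 -0.85) and FOSL1 (log2 -0.82) were lower by less, and JUND was at -0.25. FOSL2 was the exception, at 37.1, 37.9 and 39.5 FPKM in ATG7 KO against 27.3, 28.9 and 26.3 in WT cells. Every ATG7 KO library was higher, with a log2 difference of 0.47 (standard error 0.04). The calls of JUND and FOSL2 were lost with all 12 libraries in the fit (adjusted p = 0.142 and 0.0206), and that of JUND with a correction for gene length (log2 -0.07, adjusted p = 0.123).

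Passing downward were 7 of the 8 genes, where 27.9% of the 15909 genes tested did so, and 1, FOSL2, passed upward, as 27.7% of all did. Past the further thresholds downward were FOS, FOSB, JUNB and ATF3, as were 4.43% of all genes tested. The median was -1.01 over the 8 genes and -0.00 over all.

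Since AP-1 works as pairs, the summed mRNA of the 7 FOS and JUN family genes and its make-up were also followed. The sum was 369.6, 369 and 371 FPKM in untreated WT libraries and 836, 829 and 771 with H2O2. In ATG7 KO cells it was 322, 349 and 344 FPKM untreated and 422, 423 and 435 with H2O2. Both pairs of groups were apart, and the treated WT libraries were above all others. The JUN family made most of the increase in WT cells, from 158 ± 2.38 to 464 ± 8.39 FPKM, beside 212 ± 2.77 to 348 ± 27.5 for the FOS family. In ATG7 KO cells the JUN family went from 177 ± 29.2 to 217 ± 2.64 FPKM and the FOS family from 161 ± 43.6 to 210.1 ± 4.93. The untreated values differed by library, 211, 161 and 159 FPKM for the JUN family and 111, 188 and 185 for the FOS family in replicates 1 to 3, so which family rose more depended on replicate 1.

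By group mean FOSL1 held the largest share of this sum, 50.4% ± 0.526 in untreated WT cells, 36.7% ± 1.89 in WT cells with H2O2, 40.5% ± 9.61 in untreated ATG7 KO cells and 39.9% ± 0.146 in ATG7 KO cells with H2O2. In untreated ATG7 KO cells it was 29.4% in replicate 1 and 46.1% and 46.0% in the others, and JUND held 30.9% in replicate 1. JUNB went from between 15.1 and 15.9% to 27.2% ± 0.554 in WT cells and from 18.5% ± 4.10 to 13.1% ± 0.326 in ATG7 KO cells. JUN made 10.4% ± 0.419 and 18.9% ± 1.63 of the sum in WT cells and 11.1% ± 0.258 and between 19.9 and 20.1% in ATG7 KO cells, so its share with H2O2 overlapped between the genotypes.

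JUND fell as a share, though not in level, from 16.7% ± 0.667 to 11.0% ± 0.775 in WT cells, and was at 23.0% ± 6.90 and 17.6% ± 0.294 in ATG7 KO cells. FOSL2 went from 6.71% ± 0.241 to 3.39% ± 0.111 in WT cells and from 6.69% ± 1.52 to 8.95% ± 0.133 in ATG7 KO cells. Counted in reads, which are not scaled by gene length, its shares were 20% and 10.0%, and 19.8% and 23.8%. Despite their fold changes, FOS (1.45% ± 0.335) and FOSB (1.28% ± 0.147) remained small parts of the sum in WT cells with H2O2, and smaller ones in ATG7 KO cells with H2O2 (0.172% ± 0.0491 and 0.265% ± 0.0210). ATF3, which is not in the sum, equalled 1.09 to 1.15% of it in untreated and 8.82 to 10.6% in treated WT cells. In ATG7 KO cells it equalled 0.401 to 0.626% untreated and 8.08 to 8.71% with H2O2.

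**Figure D3:**
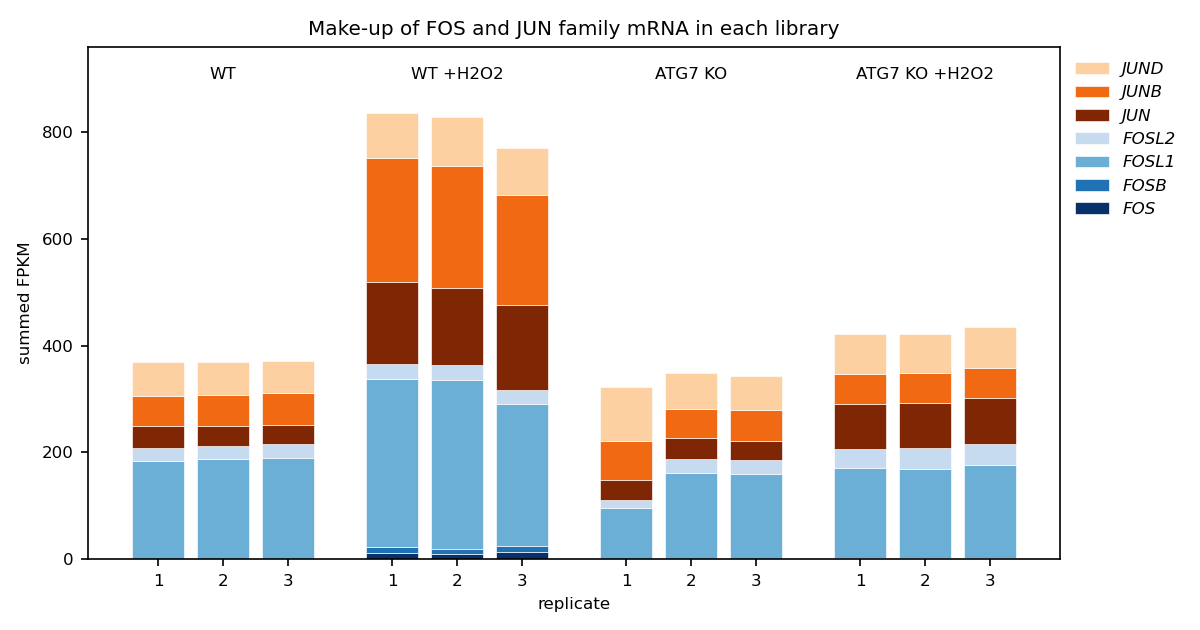
Summed FPKM of the FOS family (blues) and JUN family (oranges) in each of the 12 libraries, with 1 stacked bar per library (vertical axis from 0). The 3 WT libraries with H2O2 reach 771 to 836 FPKM, and the wide JUNB and JUN bands there are narrower in ATG7 KO cells with H2O2.

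The genes around AP-1 and ATF3 were followed in 7 lists, to be read beside the shares of all genes tested that passed. With H2O2 these were 30.9% up and 30.1% down in WT cells and 13.6% and 12.4% in ATG7 KO cells, or 29.8% and 28.6% without replicate 1. For untreated ATG7 KO against WT cells they were 4.42% and 3.28%, or 18.2% and 17.9% without replicate 1. For ATG7 KO against WT cells with H2O2 they were 27.7% and 27.9%. For the interaction they were 7.02% positive and 7.01% negative, or 17.8% and 16.3% without replicate 1. The median over all genes tested was between -0.03 and 0.01 in each of these.

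Other bZIP proteins compete with or join AP-1. In WT cells 10 of 14 tested genes of this list rose with H2O2 and 3 fell (median log2 0.98), among them the small MAF protein MAFF at 2.43, the C/EBP factor CEBPB at 1.80 and the JUN partner ATF2 at -0.84. With the knockout 1 of 15, MAFF at 1.21, rose and 3 fell (median 0.13), and without replicate 1 these counts were 7 and 5. The interaction was negative for 8 of the 15 (median -0.78), and negative for 10 and positive for 2 without replicate 1. With H2O2, 8 of the 15 were lower in ATG7 KO than in WT cells, such as the CRE-binding CREB5 at -3.79 and the stress factor DDIT3 at -1.27, and 1, ATF2, was higher at 0.33.

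The MAP kinases that pass stress signals to AP-1 showed no shared direction in mRNA. In WT cells 6 of 19 rose and 8 fell with H2O2 (median -0.11), beside 30.9% and 30.1% of all genes, with the p38 activator MAP2K3 at 2.13, the JNK gene MAPK8 at 0.53 and the ERK5 activator MAP2K5 at -1.04. Of the 19, 3 rose and 3 fell in ATG7 KO cells (median 0.09), and 8 and 7 without replicate 1. With H2O2, MAP2K3 was lower in ATG7 KO than in WT cells at -1.12, in a list where 7 were higher and 4 lower (median 0.04). Of the 6 serum response factors, which switch on FOS and its like, 2 rose and 2 fell in WT cells (median -0.00), with SRF itself at 0.57, ELK3 at 0.63 and MRTFB at -1.49. Of these 6, 1 rose in ATG7 KO cells (median 0.29), and without replicate 1 they were 2 up and 1 down. With H2O2, 4 of the 6 were higher in ATG7 KO cells and 1 lower (median 0.24). The interaction was positive for 2 of the 19 MAP kinases and 2 of the 6 serum response factors, and negative for 2 of the MAP kinases. Without replicate 1 it was positive for 6 and negative for 3 of the MAP kinases, and positive for 2 and negative for 1 of the serum response factors.

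Most of the stress genes known to act upstream of ATF3 or beside it rose in each genotype. With H2O2, 8 of 13 rose and 4 fell in WT cells (median 1.29), and 8 rose and 1 fell in ATG7 KO cells (median 1.42; 8 and 3 without replicate 1). GDF15, a secreted stress factor, and the cell cycle inhibitor gene CDKN1A were at 7.30 and 4.96 in WT cells and at 8.37 and 5.14 in ATG7 KO cells. Between genotypes with H2O2, 5 of the 13 were higher in ATG7 KO cells and 6 lower, the lower ones including the integrated stress response genes TRIB3 (-1.73) and CHAC1 (-1.57). The interaction was positive for 4 and negative for 3 of the 13 (median 0.17), and 6 and 4 without replicate 1.

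Most genes known to restrain AP-1 rose in WT cells as well. Of 13 phosphatases, mRNA-decay factors and ubiquitin ligases, 12 rose and 1 fell (median 2.06), with the MAP kinase phosphatase DUSP5 at 4.76 and the mRNA-decay factor ZFP36L2 at 3.53, while the ligase ITCH was at -0.33. Of the 13, 9 rose in ATG7 KO cells (median 1.24), among them DUSP5 at 2.99 and DUSP1 at 2.31, and 11 without replicate 1. The interaction was negative for 8 and positive for 1 of the 13 (median -0.93), and 10 and 2 without replicate 1. Before treatment, 4 of the 13 were higher in ATG7 KO cells, with DUSP4 at 2.54, and without replicate 1 there were 6 higher and 1 lower. With H2O2, 5 of the 13 were higher and 6 lower in ATG7 KO cells. ZFP36 was lower in ATG7 KO cells at -2.15 and DUSP4 higher at 1.60.

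The other early response genes rose throughout in WT cells. All 18 of the 18 rose in WT cells (median log2 2.38), with BTG2 at 6.05 and the orphan receptor NR4A3 at 4.28. Of the 18, 9 rose in ATG7 KO cells (median 0.89), with BTG2 at 6.60, and 13 without replicate 1. With H2O2, 17 of the 18 were lower in ATG7 KO than in WT cells (median -0.83), with EGR1 at -3.03 and EGR3 at -3.22. The interaction was negative for 13 and positive for 1 of them (median -1.32), and negative for 15 and positive for 2 without replicate 1.

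Genes known as AP-1 targets include proteases, cytokines and growth factors. In WT cells 15 of 16 rose with H2O2 and 1 fell (median 1.36), with the cytokine genes IL6 at 4.78 and LIF at 3.93 and the chemokine gene CCL2 at -1.05. Of 17 tested in ATG7 KO cells, 10 rose and 1 fell (median 0.98), with IL6 at 2.65, the growth factor gene HBEGF at 2.30 and CCL2 at -2.74, and without replicate 1 they were 15 and 2. Before treatment 9 of 16 were already higher in ATG7 KO cells (median 0.71), with CXCL8 at 3.31 and IL6 at 2.97, and without replicate 1 there were 12 higher and 1 lower. With H2O2, 11 of 17 were higher in ATG7 KO than in WT cells and 5 lower (median 0.49), the protease genes MMP9 and PLAU being higher at 1.83 and 1.11 and LIF and HBEGF lower at -1.77 and -1.14. The interaction was negative for 7 of the 17 and positive for 0 (median -0.61), and 9 and 2 without replicate 1 (median -0.44).

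Before treatment the remaining 5 lists were also compared between genotypes. In ATG7 KO against WT cells 3 of 14 bZIP genes, 1 of 19 MAP kinases and 1 of 6 serum response factors were higher, 2 of 13 stress genes were lower, and of the 18 other early genes 1 was higher and 3 were lower. Without replicate 1 the genes higher and lower were 7 and 3 (bZIP), 2 and 4 (MAP kinases), 2 and 2 (serum response factors), 1 and 6 (stress genes) and 4 and 5 (other early genes). Over the 106 genes of the 7 lists, 24 were called before treatment and 49 in the H2O2 response of ATG7 KO cells. Beside them stood 7.70% and 26.0% of all genes tested. These counts and shares moved when single libraries were left out. Without untreated ATG7 KO replicate 1 the lists had 56 and 82, beside 36.2% and 58.4% of all genes. Before treatment the list count was 7 or 8 without any 1 WT replicate (1.82 to 1.86% of all genes) and 12 or 13 without ATG7 KO replicate 2 or 3 (3.36 and 3.39%). In the response it was 30 to 32 without any 1 treated replicate (11.1 to 11.2% of all genes).

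**Figure D4:**
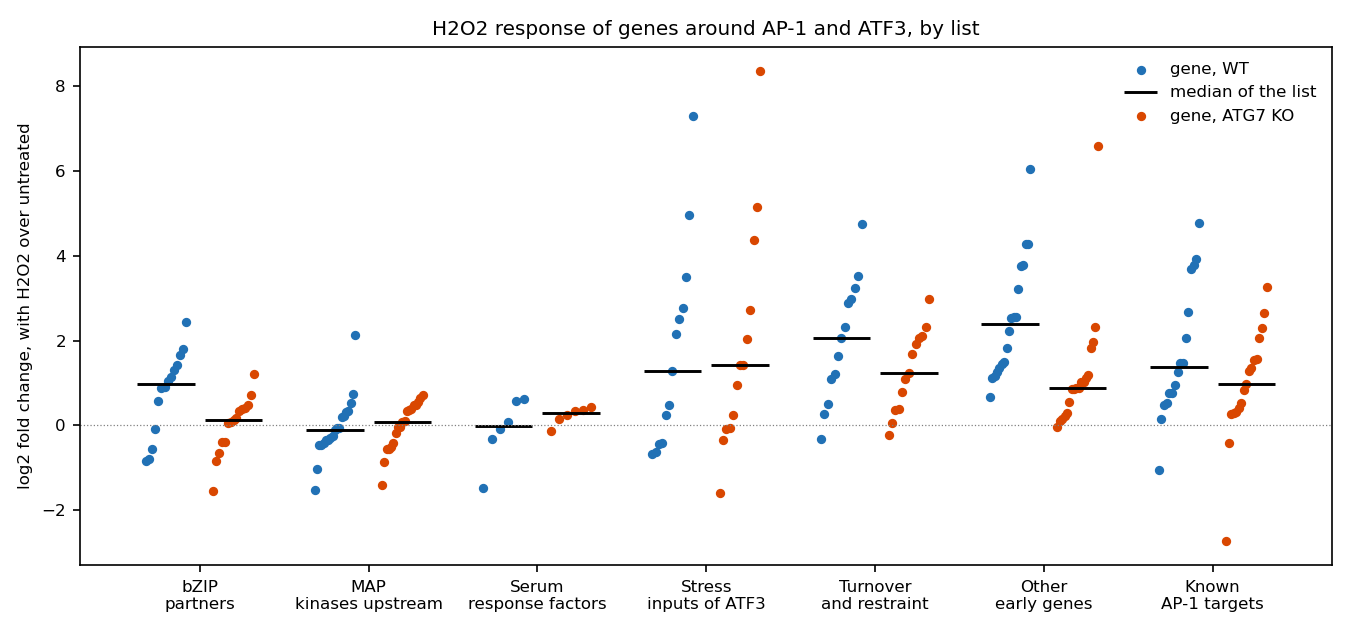
Log2 fold change with H2O2 over untreated (vertical axis) of each tested gene of the 7 lists, in WT cells (blue) and ATG7 KO cells (orange), with the median of each list as a line. The other early genes have a median of 2.38 in WT and 0.89 in ATG7 KO cells, and the stress inputs of ATF3 1.29 and 1.42.

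Each member was also set beside the 10 tested genes on either side of it on its chromosome. Around JUNB, 18 of 20 neighbours were below 0 for ATG7 KO against WT with H2O2 and 17 were called lower, with a median log2 of -0.65 beside -1.99 for JUNB. The same 20 places had a median of -0.41 before treatment, beside 0.11 for JUNB, and a median interaction of -0.35, beside -2.10. The part of this stretch in the lower JUNB level was not tested. Around FOSL1, 14 of 20 neighbours were below 0 with H2O2 and 13 were called lower (median -0.46, beside -0.82 for FOSL1).

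The neighbours of JUN tended upward, with 15 of 20 above 0 for ATG7 KO against WT with H2O2, 9 called higher and 2 lower. In this comparison the neighbours' median was -0.02 around FOS, -0.02 around FOSB, 0.35 around JUN, 0.12 around ATF3, -0.05 around JUND and -0.15 around FOSL2. FOS, FOSB, JUN and JUNB each lay below all 20 of their neighbours, whose lowest values were -1.70, -1.11, -0.76 and -1.95. ATF3 lay within the range of its neighbours.

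**Figure D5:**
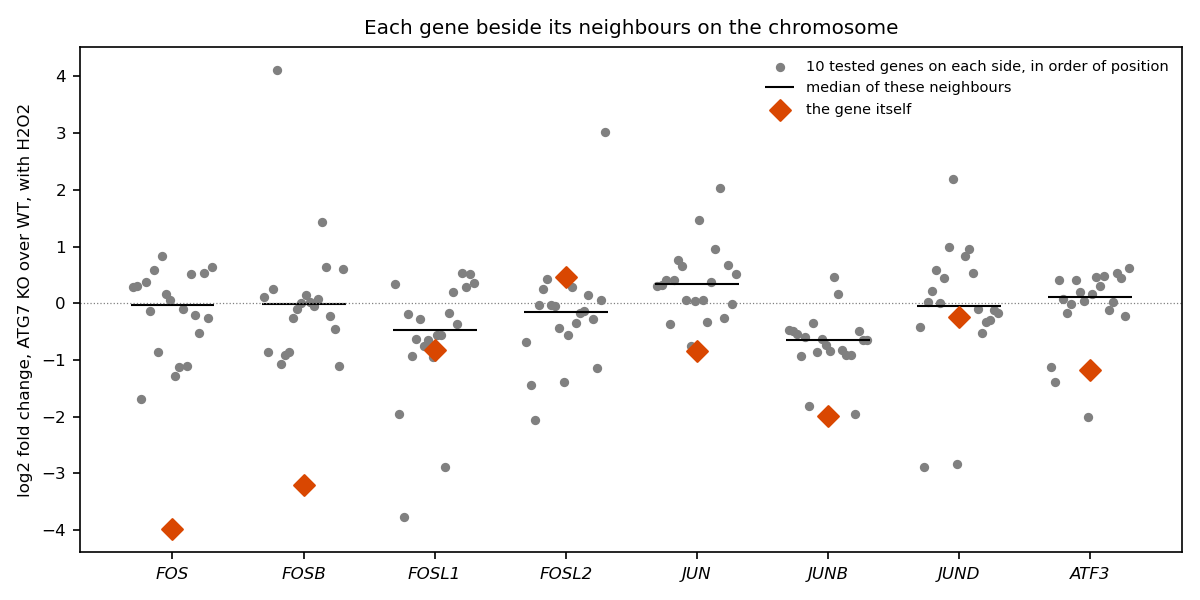
Log2 fold change of ATG7 KO over WT cells with H2O2 (vertical axis) for each of the 8 genes (diamonds) and the 10 tested genes on each side (grey points, in order of position), with the neighbours' median as a line. FOS at -3.99 and FOSB at -3.20 lie below every neighbour, while most neighbours of JUNB lie below 0 with it.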

How the data were processed

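The authors deposited raw counts of reads per gene and FPKM values for 12 libraries; the submitters' processing notes name HISAT2 2.0.5, featureCounts 1.5.0-p3 and GRCh38. FPKM was checked against the counts and equals count over gene length and library total, with 1 factor per library between 0.949 and 1.02. Counts were analysed with edgeR 4.0.16 in R 4.3.3: filterByExpr at a minimum count of 10, TMM scaling, and robust quasi-likelihood fits of the 6 libraries of each comparison, or of all 12 for the interaction. A gene was called at a Benjamini-Hochberg adjusted p under 0.01 over all genes tested, and all 8 genes passed the filter in every fit. Standard errors of log2 fold changes are approximate, the absolute log2 fold change over the square root of the quasi-likelihood F. The steps were tested on simulated data. The members and lists were chosen with earlier results of these data known. Named genes are the 8 members, ATG7 and, per list and comparison, up to 2 called genes with the highest and 2 with the lowest log2 fold change at a mean FPKM over 1; genes named for their interaction outside this rule were chosen after their values were seen. Some genes this rule gives are not reported here. Likeness of genes is Pearson r of log2 CPM (prior count 2). Alternatives were DESeq2 1.42.0, limma 3.58.1 on log2 FPKM plus 1 or plus 0.1, RLE and upper quartile scaling, no filter, at least 10 counts in every library, an offset for gene length (lowess, span 0.3), a single fit of all 12 libraries, a replicate block, leaving out 1 library at a time, and a threshold of 0.05. With 3 libraries a group, precision is limited by the spread between replicates and, for FOS and FOSB, by low counts.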

Additional observations from a re-analysis of the deposited data

Results flagged for a closer look

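The genes below had an H2O2 response that differed between ATG7 KO and WT cells by the interaction test, and each value is the log2 response of ATG7 KO cells minus that of WT cells. Among the 8 members these were FOS at -3.51, FOSB at -3.36, JUNB at -2.10 and JUN at -0.81. All 4 kept their call in each of the 12 fits that left out 1 library.

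Among genes of the related lists that the text names, the bZIP genes were CREB5 at -2.88, MAFK at -1.81, MAFF at -1.22, CEBPB at -1.08 and JDP2 at -0.77. Signalling and serum response genes were MAP2K3 at -1.80 and MRTFB at 1.35. Genes that restrain AP-1 were DUSP5 at -1.77, ZFP36 at -1.58, ZFP36L2 at -1.42, DUSP1 at -0.94, DUSP4 at -0.93 and ITCH at 0.72. Other early genes were EGR3 at -3.49, NR4A3 at -3.25, EGR1 at -2.45, EGR2 at -1.95 and IER2 at -1.30. Known AP-1 targets were CXCL8 at -2.82, LIF at -2.57, IL6 at -2.13, CCL2 at -1.68, HBEGF at -1.38 and PLAU at -0.94. By mean FPKM with H2O2, CXCL8 (1034 against 732), IL6 (115 against 64.2) and PLAU (54.4 against 25.1) were still higher in ATG7 KO than in WT cells. LIF (46.7 against 158), HBEGF (39.1 against 85.8) and CCL2 (9.94 against 13.1) were lower. Stress genes were TRIB3 at -1.21, PPP1R15A at -1.08 and GDF15 at 1.07.

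Single libraries decided some of these calls. GDF15 lost its call in 9 of the 12 fits that left out 1 library (adjusted p from 0.0103 to 0.0211), EGR2 in 8 (0.0128 to 0.0215), JDP2 in 8 (0.0162 to 0.0254) and MRTFB in 4 (0.0106 to 0.0121). The call of DUSP4 was lost with limma on log2 FPKM plus 1 (-0.22, adjusted p = 0.222), and that of GDF15 with limma on log2 FPKM plus 0.1 (0.0129). JDP2 lost its call with both (0.0169 and 0.0129) and with the replicate block (0.0137), as did EGR2 with the block (0.0116). Without untreated ATG7 KO replicate 1 every gene given here kept its call and direction.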

How the results depend on the processing

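For the 8 members, 409 of the log2 changes recomputed in other settings kept their direction and side of the threshold, as did 262 of those with 1 library left out. Of the others, 10 and 16 lost a call, 9 and 5 gained one, and 4 and 5 changed sign; the cause was not tested. With 1 library left out, the members called numbered 7 to 8 (WT response), 2 to 6 (ATG7 KO response) and 0 to 2 (untreated). They numbered 8 with H2O2 and 4 to 7 in the interaction, where the highest, 7, came without untreated ATG7 KO replicate 1. Of all genes tested, 55.2 to 59.4%, 11.1 to 58.4%, 1.82 to 36.2%, 48.6 to 54.3% and 7.69 to 34.1% were called in turn. With the replicate block the members called were 8, 3, 0, 8 and 4, beside 61.1%, 19.0%, 3.25%, 54.7% and 11.8% of all genes. ATF3 was then at -1.28 (adjusted p = 0.0140) untreated and FOS at 1.58 (adjusted p = 0.0101) in the ATG7 KO response. Same-numbered libraries did not deviate alike from their group means, with a Pearson r of these deviations over genes from -0.038 to 0.085. Signs changed with the gene length offset for JUNB (0.01) and JUND (0.14) in the ATG7 KO response and JUNB (-0.07) untreated. They changed without untreated ATG7 KO replicate 1 for JUND (0.18, range over left-out libraries -0.15 to 0.18) in that response, JUNB (-0.03, range -0.03 to 0.19) and FOSL2 (0.09, range -0.24 to 0.09) untreated and ATF3 (-0.09, range -0.09 to 0.27) in the interaction. ATF3 in the interaction also changed with limma on log2 FPKM plus 1 (-0.22) and without replicate 3 of WT cells with H2O2 (-0.03). By reads in place of FPKM the FOSL1 share was 39.6%, 28.6%, 31.5% and 28.0% in WT, treated WT, ATG7 KO and treated ATG7 KO cells, and the FOSL2 share was 20%, 10.0%, 19.8% and 23.8%. The list genes called, an alternative chosen after seeing the data, were also counted with 1 library left out. They ranged over 88 to 91, 30 to 82, 7 to 56, 78 to 81 and 38 to 74, beside the shares of all genes given above. Untreated they were 12 with the replicate block, 37 with all 12 libraries and 37 at a threshold of 0.05. In these settings 3.25%, 18.7% and 18.5% of all genes tested were called. Each fit without 1 library compares 2 replicates with 3. No scaling moved the median of all genes by more than 0.1 on the log2 scale. Low depth limits FOS (12 to 49 reads outside treated WT cells) and some list genes. Examples are EGR2 (6 to 11 reads), EGR3 (9 to 28) and NR4A3 (5 to 13) in untreated WT cells. In ATG7 KO cells with H2O2, CREB5 (15 to 20 reads) and EGR3 (20 to 43) were also low.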

Other observations

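Genes whose level ran most like that of a member over the 12 libraries were sought among 12557 genes with a mean over 1 FPKM, as a description that rests largely on the 4 groups. FOS was most like the mitochondrial ribosomal RNA MT-RNR2 (Pearson r 0.990), then FOSB (0.985) and ZNF367 (0.982). FOSB was most like DDIT4, a stress-induced inhibitor of mTORC1 (0.985), FOS (0.985) and ZNF263 (0.977). JUNB was most like the early gene IER2 (0.995), the mitochondrial helicase gene TWNK (0.986) and AP001767.2 (0.981). JUN was most like the zinc exporter gene SLC30A1 (0.995), PPP1R15A (0.995), which helps end the integrated stress response, and the phosphatase gene DUSP1 (0.991).

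ATF3 was most like ADAMTS1, TNFRSF10D and the phosphatase gene PPM1D (0.995 each). FOSL1 was most like the glycolytic gene PFKP (0.993), RNF44 (0.981) and GTF3C4 (0.978). FOSL2 was most like DENND5A (0.992), CREB3L2 (0.990) and the growth factor receptor gene IGF1R (0.990). JUND was most like SNRPB (0.984), RPS19 (0.973) and GTF2A2 (0.973), which serve splicing, translation and transcription.

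Among the members themselves FOS and FOSB had an r of 0.99 over the 12 libraries, FOS and JUNB 0.94, and JUN and ATF3 0.96. FOSL2 had an r of 0.15 to FOS, -0.15 to JUNB, 0.45 to JUN and 0.60 to ATF3. JUND had 0.08 to FOSL1, -0.21 to FOSL2 and 0.44 to ATF3. All of these libraries share the 4 groups, so these values carry no test.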
